A study of Mus musculus with 8 samples.

Results

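The 9 genes described here carry the signal of insulin and insulin-like growth factor (IGF) from the cell surface to the kinase Akt: the receptors Insr and Igf1r, the docking proteins Irs1 and Irs2, the phosphoinositide 3-kinase (PI3K) subunits Pik3ca and Pik3r1, the kinases Akt1 and Akt2, and the receptor-binding adaptor Grb10. They were taken by gene symbol from the annotation of the array. All 9 were among the 22221 genes measured, through 19 of 56605 probes. All 19 probes were well above background on all 8 arrays, so 0 members were lost to the filter on dim probes.

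RNA from soleus, a slow postural muscle of the calf, was measured in 2 groups of 4 samples. The animals of the group named P. gingivalis had been given cells of Porphyromonas gingivalis, a bacterium of human gum disease, suspended in 100 µL of saline through a feeding needle for 6 weeks, and the group named saline had been given the liquid alone. Both groups were male C57BL/6J mice, 8 weeks old at the start and 14 weeks old at sampling, and both ate a high-fat diet, so no group on another diet stands beside them. The bacterial dose and the insulin or feeding state at sampling are not given in the sources used here, and neither is whether every array had a mouse of its own, so the p-values describe how these 8 samples scatter, which may be technical.

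All arrays were on 1 slide, where the position code began with 1 for every P. gingivalis array and with 2 for every saline array. An effect of the position and one of the group therefore cannot be told apart. The authors' deposited table has 8 columns of values, and each resembled most closely the array of the other group with the same number, while 0 resembled most closely the array of its own name. Groups here follow the sample records, and every sign below would turn round if the table's column names were right. The number of probes well above background was 34852 to 35365 on the P. gingivalis arrays and 30177 to 34075 on the saline arrays. Markers of slow fibres and of fast fibres were measured for 8 of 8 genes each, and the liver markers Alb, Apoa1 and Ttr were measured for 0 of 3 genes, none having a probe above background on enough arrays.

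Insulin and IGF receptors are tyrosine kinases that phosphorylate IRS proteins, which then recruit PI3K through the SH2 domains of its regulatory subunit. The lipid that PI3K makes draws Akt to the membrane, where it is activated. In muscle, Akt2 is best known for bringing the glucose transporter to the surface after insulin, and Akt1 for growth. Activity along this route is set by phosphorylation, which an array of RNA does not measure.

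The array reads each gene through probes of 60 bases. The probes below are shown as examples of what was read at each step, from receptor to docking protein, PI3K and Akt. They include the Pik3r1 and Akt2 probes with an unadjusted p under 0.05 and the Akt1 probe whose difference had the opposite sign to the brightest Akt1 probe. Sequences run 5′ to 3′ in the sense of the RNA, and capitals mark the start codon of Akt1, at base 4 of its probe. Positions are those of the files, in mouse build mm9. The ends of the Pik3r1 probe are 1043 bases apart on the genome, those of the Akt1 probe 9267 and those of the Akt2 probe A_51_P408044 141, so these 3 probes span a splice junction. No annotation of exons in mm9 was used here.
Insr A_52_P6490, chr8:3159473-3159532, minus strand: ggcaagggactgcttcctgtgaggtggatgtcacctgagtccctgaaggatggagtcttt
Irs2 A_66_P102260, chr8:11004490-11004549, minus strand: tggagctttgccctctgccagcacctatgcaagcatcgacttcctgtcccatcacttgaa
Pik3r1 A_52_P307938, chr13:102459406-102460448, minus strand: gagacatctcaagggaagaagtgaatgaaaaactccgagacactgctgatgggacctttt
Akt1 A_52_P418014, chr12:113900509-113909775, minus strand: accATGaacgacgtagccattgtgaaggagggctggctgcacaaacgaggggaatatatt
Akt2 A_51_P408044, chr7:28421973-28422113, plus strand: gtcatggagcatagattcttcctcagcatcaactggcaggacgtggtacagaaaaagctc
Akt2 A_55_P2066523, chr7:28418226-28418285, plus strand: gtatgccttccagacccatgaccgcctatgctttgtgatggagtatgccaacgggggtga

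Values below are log2 signals minus the 75th percentile of the same array, so 0 is the level of that percentile and a difference of 1 is a doubling. Each gene is given by its probe with the highest mean signal, and levels are not compared between genes, because probes differ in how strongly they bind. By limma's test, with p-values adjusted by the Benjamini-Hochberg method over all 22221 genes, 0 of the 9 members passed an adjusted p of 0.05, as 0.117% of all genes did, and the smallest adjusted p among them was 0.198. At an unadjusted p under 0.05 there were 2 of 9, or 22.2%, namely Irs1 and Pik3r1, against 19.7% of all genes, so the share among the members was close to that of the array. Groups did not overlap for 0 of 9 members, against 13.4% of all genes. The median log2 difference of the 9 was -0.03, against -0.01 over all genes, with 4 members above 0 and 5 below, where 47.7% of all genes were above 0.

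**Figure D1:**
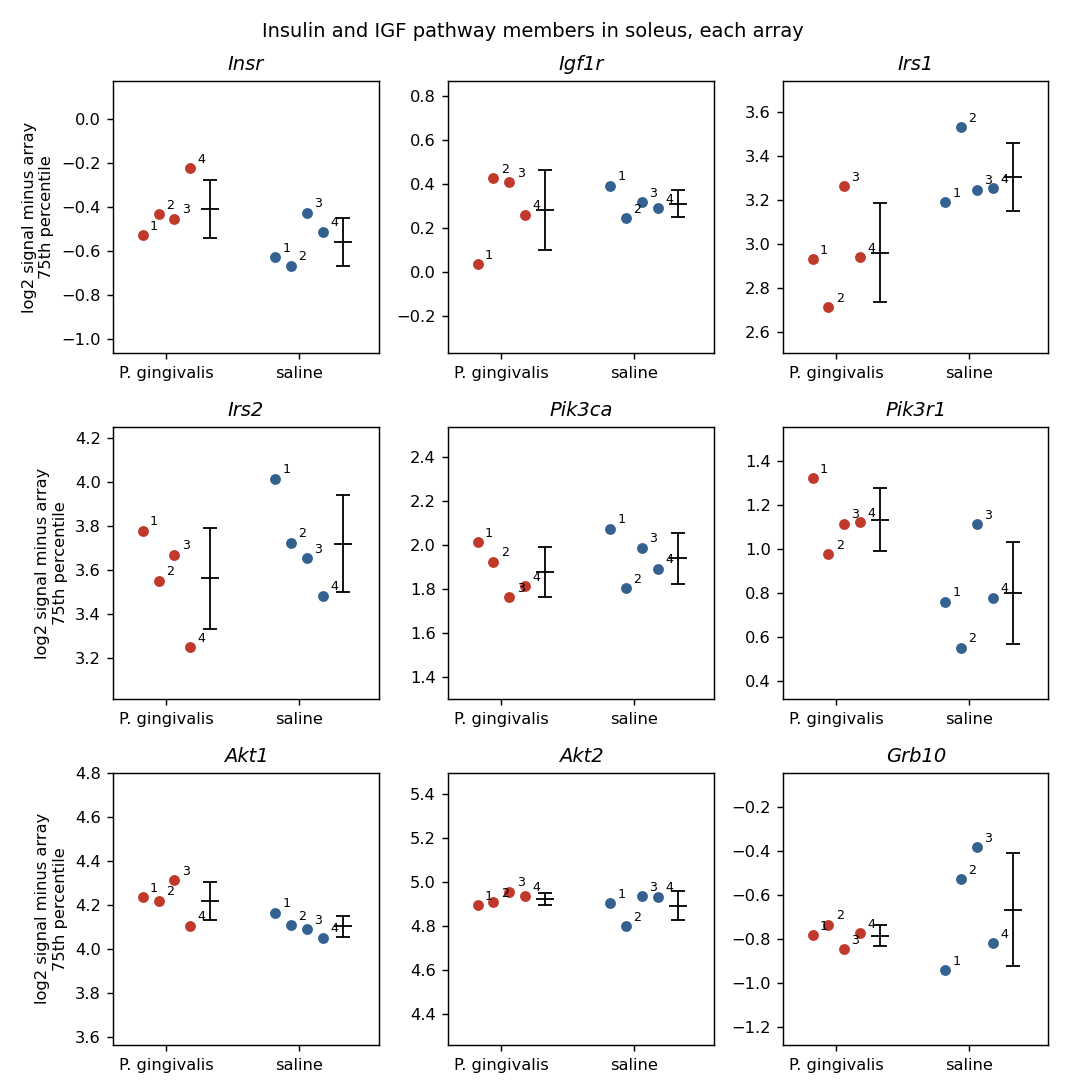
Log2 signal minus the array's 75th percentile for the 9 genes, with each panel spanning the same height; points are arrays numbered 1 to 4, P. gingivalis on the left and saline on the right, and bars give the mean and SD of 4 arrays. Groups overlap in all 9 panels, with Irs1 lower on average in P. gingivalis (2.96, against 3.31) and Pik3r1 higher (1.13, against 0.80).

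The receptors come at the head of the pathway. Insr, the insulin receptor, had values of -0.53, -0.43, -0.45 and -0.22 on the P. gingivalis arrays and -0.63, -0.67, -0.43 and -0.51 on the saline arrays. The P. gingivalis 4 array was the highest, and saline 3 lay just above the other P. gingivalis arrays, so the groups overlapped. The means were -0.41 ± 0.13 in P. gingivalis and -0.56 ± 0.11 in saline (SD, n = 4 each). The log2 difference was 0.15 ± 0.09 (SE), adjusted p = 0.375 by limma, with a 95% interval of -0.05 to 0.35, and it was 0.088 without P. gingivalis 4. The Insr probe printed above had a log2 difference of 0.21 ± 0.12 (SE), so the 2 probes of Insr had the same sign. That probe was dim, with a mean level of -3.07 against -0.48 for the brightest. Its difference was 0.093 with normexp background correction and 0.33 with quantile normalization.

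Igf1r, the IGF1 receptor, which is closely related to the insulin receptor, had values of 0.03, 0.43, 0.41 and 0.26 in P. gingivalis and 0.39, 0.24, 0.32 and 0.29 in saline. The saline values lay within the range of the P. gingivalis values. The log2 difference was -0.03 ± 0.09 (SE), with a 95% interval of -0.25 to 0.19, and it took the other sign, 0.05, without P. gingivalis 1, the lowest array. Another probe of the same transcript was at -0.04 ± 0.10 (SE). The remaining pair of Igf1r probes was designed on cDNA clones that map upstream on chromosome 7, and these gave 0.01 and -0.75. The second of them, A_55_P2804885 at chr7:75332796-75332855, stood at -3.20, -3.53, -3.64 and -3.18 in P. gingivalis and at -2.96, -3.15, -0.996 and -3.47 in saline. A single array, saline 3, carried that difference, which was -0.20 without it.

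**Figure D2:**
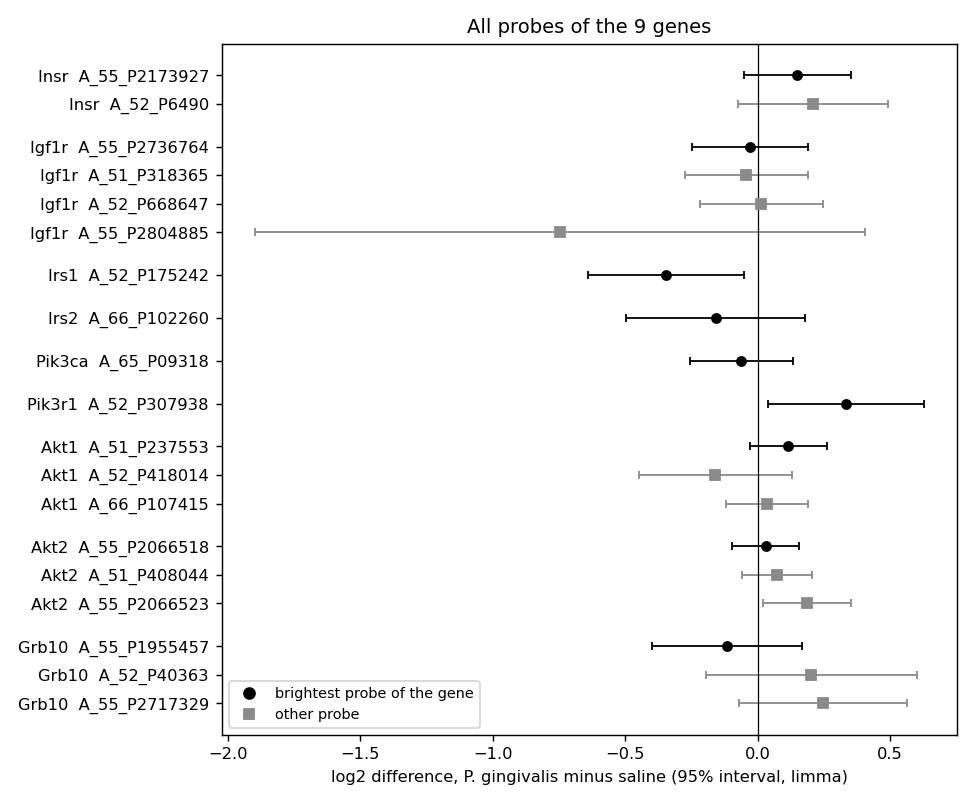
Log2 difference, P. gingivalis minus saline, for all 19 probes of the 9 genes, with 95% intervals from limma's fit over 33636 probes; black circles are the brightest probe of each gene and grey squares the other probes. The intervals of Irs1, Pik3r1 and Akt2 A_55_P2066523 lie to one side of 0, and the widest belongs to Igf1r A_55_P2804885.

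The IRS proteins dock PI3K to the activated receptors. Irs1 had values of 2.93, 2.71, 3.26 and 2.94 on the P. gingivalis arrays and 3.19, 3.53, 3.25 and 3.26 on the saline arrays. Of the P. gingivalis arrays, 1, 2 and 4 were below all saline arrays, and P. gingivalis 3 lay inside the saline range. The means were 2.96 ± 0.23 in P. gingivalis and 3.31 ± 0.15 in saline (SD, n = 4 each), a log2 difference of -0.35 ± 0.13 (SE), or 1.27-fold in size. The unadjusted p was 0.0269 and the adjusted p was 0.198 by limma, with an unadjusted 95% interval of -0.64 to -0.05. Its only probe lies at chr1:82229692-82229751. Leaving out any 1 array left the difference between -0.45 and -0.26.

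Irs2, the other widely expressed docking protein, had values of 3.78, 3.55, 3.67 and 3.25 in P. gingivalis and 4.02, 3.72, 3.66 and 3.48 in saline. The groups overlapped over most of their range, with the lowest array in P. gingivalis and the highest in saline. The log2 difference was -0.16 ± 0.15 (SE), adjusted p = 0.576 by limma, with a 95% interval of -0.49 to 0.18. It ranged from -0.24 without saline 4 to -0.05 without P. gingivalis 4. The single probe of Irs2 had the widest spread within groups of the 9 members, an SD of 0.23, against a median of 0.14 over all genes.

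PI3K is a pair of subunits. Pik3r1 encodes p85 alpha, which stabilises and restrains the catalytic partner and binds IRS proteins, and shorter forms made from the same gene. It had values of 1.32, 0.98, 1.11 and 1.12 on the P. gingivalis arrays and 0.76, 0.55, 1.11 and 0.78 on the saline arrays. All 4 P. gingivalis arrays were above saline 1, 2 and 4, and saline 3 lay above P. gingivalis 2 and level with P. gingivalis 3. The means were 1.13 ± 0.14 in P. gingivalis and 0.80 ± 0.23 in saline (SD, n = 4 each). The log2 difference was 0.33 ± 0.13 (SE), or 1.26-fold in size, with unadjusted p = 0.0304, adjusted p = 0.208 by limma and an unadjusted 95% interval of 0.04 to 0.63. It ranged from 0.25 without saline 2 to 0.44 without saline 3, where its adjusted p was 0.0990, the smallest of the 9 members in any fit with 1 array left out.

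Pik3ca, the catalytic subunit p110 alpha that carries most insulin-driven PI3K activity, had values of 2.01, 1.92, 1.76 and 1.81 in P. gingivalis and 2.07, 1.80, 1.99 and 1.89 in saline. The arrays of the groups were interleaved. Its log2 difference was -0.06 ± 0.08 (SE), adjusted p = 0.710 by limma, with a 95% interval of -0.25 to 0.13. It moved to -0.11 without P. gingivalis 1 and to -0.02 without saline 1.

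By the brightest probe of each gene, the Akt kinases had the tightest values of the 9 genes. Akt2 had values of 4.90, 4.91, 4.96 and 4.94 on the P. gingivalis arrays and 4.90, 4.80, 4.94 and 4.93 on the saline arrays. All arrays but saline 2 lay within a narrow band. Its SD within groups was 0.049, at percentile 4.07 of all genes, and the log2 difference was 0.03 ± 0.05 (SE), with a 95% interval of -0.09 to 0.15. The value was -0.00033 without saline 2.

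The other Akt2 probes were at 0.07 ± 0.06 (SE) and 0.19 ± 0.07 (SE) on the log2 scale. The second of these, A_55_P2066523, had values of 0.49, 0.55, 0.53 and 0.65 in P. gingivalis and 0.43, 0.34, 0.48 and 0.23 in saline. It was the only member probe whose groups did not overlap, 1 of 19, against 14.1% of all 33636 kept probes. Its unadjusted p was 0.0326 and its adjusted p was 0.200 by limma over those probes. With median centring, which moved the median of all genes to 0.14, its difference was 0.33 and its adjusted p was 0.0435 by limma. Over the probes scaled to the 75th percentile, 0 of 19 members' probes passed an adjusted p of 0.05, against 0.169% of all kept probes. At an unadjusted p under 0.05 there were 3 of 19, or 15.8%, against 20.6% of all kept probes, and 11 of the 19 lay above 0, against 51%.

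Akt1 had values of 4.24, 4.22, 4.31 and 4.11 in P. gingivalis and 4.16, 4.11, 4.09 and 4.05 in saline. The P. gingivalis 4 array lay among the saline arrays and the other P. gingivalis arrays were above them. The log2 difference was 0.12 ± 0.06 (SE), adjusted p = 0.331 by limma, with a 95% interval of -0.02 to 0.26. The Akt1 probe that holds the ATG was much dimmer, with a mean level of -2.15 against 4.16 for the brightest probe. Its log2 difference was -0.16 ± 0.12 (SE), with an SD of 0.24 in P. gingivalis and 0.12 in saline. The third Akt1 probe was at 0.03 ± 0.07 (SE). With the mean of the 3 probes the Akt1 difference was -0.0032, so its sign rests on the choice of probe.

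Grb10 binds the activated receptors, restrains their signal and is expressed from 1 parental allele in many mouse tissues. Its brightest probe had values of -0.78, -0.73, -0.85 and -0.77 on the P. gingivalis arrays and -0.94, -0.53, -0.38 and -0.82 on the saline arrays. The P. gingivalis arrays lay close together and inside the saline range, with an SD of 0.05 in P. gingivalis against 0.26 in saline. Grb10 probe A_52_P40363 went the other way, with an SD of 0.29 in P. gingivalis and 0.26 in saline. For A_55_P2717329 the SD was 0.13 in P. gingivalis and 0.27 in saline. No test of these differences in spread was made. The log2 difference was -0.12 ± 0.12 (SE), with a range of -0.21 without saline 1 to -0.02 without saline 3, and the other 2 Grb10 probes were at 0.20 ± 0.17 (SE) and 0.25 ± 0.14 (SE). The mean of the 3 probes gave 0.11, the opposite sign.

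**Figure D3:**
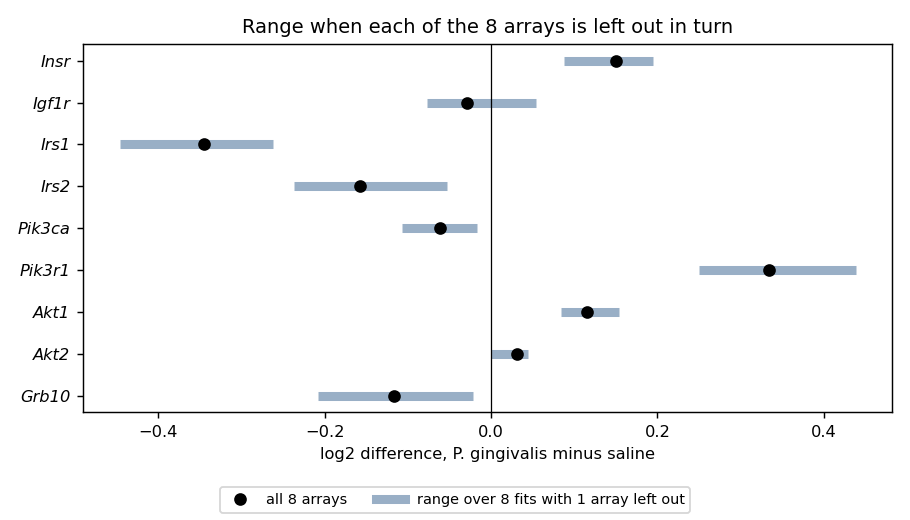
Log2 difference, P. gingivalis minus saline, of the 9 genes with all 8 arrays (points) and the range over the 8 fits that leave out 1 array (bars). Irs1 stays between -0.45 and -0.26 and Pik3r1 between 0.25 and 0.44, and the ranges of Igf1r and Akt2 cross 0.

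The rest of the pathway was read through 5 lists with 77 other genes, of which 72 were measured. Of these, 0 passed an adjusted p of 0.05 by limma, against 0.117% of all genes, and 9 had an unadjusted p under 0.05, 12.5% of the 72, against 19.7% of all genes. Of the 9, 7 were higher and 2 lower in P. gingivalis, where 10.1% of all genes were higher and 9.66% lower at that threshold. Groups did not overlap for 8 of the 72, against 13.4% of all genes. The median log2 difference was 0.04, against -0.01 over all genes.

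Upstream, 10 of 13 ligands and binding proteins were measured. At an unadjusted p under 0.05 there was 1 of 10, or 10%, against 19.7% of all genes. The insulin genes Ins1 and Ins2, which are transcribed in the pancreas, and Igfbp1 did not pass the filter on dim probes. Igfbp5, an IGF-binding protein abundant in muscle, was at 0.25 ± 0.09 (SE), adjusted p = 0.189 by limma. Igfbp2 was at 0.29, or 0.084 with normexp background correction. Igfals, which forms the large circulating IGF complex, was at 0.22, with a range of 0.054 without saline 4 to 0.37 without saline 1. Igfbp4 was at 0.19, or 0.082 without saline 3.

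Of the 16 receptor adaptors and brakes measured, Gab1, a docking protein that also recruits PI3K, had the largest log2 difference, 0.36 ± 0.11 (SE), adjusted p = 0.144 by limma. Its values were -1.15, -1.02, -1.20 and -0.84 in P. gingivalis and -1.55, -1.51, -1.41 and -1.18 in saline, overlapping only at P. gingivalis 3 and saline 4. Sos1, an exchange factor for Ras, was at -0.13 with groups that did not overlap. Sh2b3 was at -0.18 and the phosphatase Ptpn11 at -0.17. Other probes of Sh2b3 and Ptpn11 gave differences of up to 0.21 and 0.23, and Ptpn11 was at -0.094 without saline 3.

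Among 13 other PI3K subunits and lipid phosphatases, Pik3r3, the regulatory subunit p55 gamma, had values of 0.02, 0.24, 0.26 and 0.13 on the P. gingivalis arrays and 0.39, 0.58, 0.32 and 0.40 on the saline arrays. All P. gingivalis arrays lay below all saline arrays, the opposite sign to Pik3r1, which encodes a regulatory subunit of the same kind. The log2 difference of Pik3r3 was -0.26 ± 0.08 (SE), adjusted p = 0.147 by limma. Inpp5k, a phosphatase that removes the lipid product of PI3K in muscle, was at 0.12 with groups that did not overlap, Inpp4b was at -0.22, or -0.14 without saline 1. Inpp5d was at -0.12, with a range of -0.29 without saline 3 to -0.02 without saline 4.

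Of 13 kinases, activators and brakes of Akt, 3, or 23.1%, had an unadjusted p under 0.05, against 19.7% of all genes. All 3, which include Rictor and Trib1, were higher in P. gingivalis, where 10.1% of all genes were higher at that threshold. Groups did not overlap for 2 of the 13, both lower, against 13.4% of all genes. Rictor, a subunit of the mTOR complex that phosphorylates Akt, was at 0.22 ± 0.09 (SE), adjusted p = 0.252 by limma, and another of its 6 probes was at -0.21. The pseudokinases Trib1 and Trib2, members of a family reported to bind Akt, were at 0.33 and -0.35. Another Trib1 probe was at 0.070, and Trib2 was at -0.20 without P. gingivalis 1. The Akt phosphatase Phlpp1 was at 0.23, and its other probe at 0.069.

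Among 20 Akt substrates and downstream steps, 3, or 15%, had an unadjusted p under 0.05, against 19.7% of all genes. These were 2 higher and 1 lower in P. gingivalis. Groups did not overlap for 3 of the 20, 2 higher and 1 lower, against 13.4% of all genes. Foxo3 had the smallest adjusted p of the 72 genes. It is a transcription factor that Akt phosphorylates and keeps out of the nucleus. Its values were 0.30, 0.24, 0.15 and 0.25 on the P. gingivalis arrays and -0.12, -0.08, 0.01 and -0.08 on the saline arrays. All P. gingivalis arrays were above all saline arrays, with a log2 difference of 0.30 ± 0.06 (SE), unadjusted p = 0.000678 and adjusted p = 0.0654 by limma. Another of its 3 probes was at -0.10, and the mean of its probes gave 0.19. Foxo1 was at 0.40 ± 0.23 (SE), or 0.25 without P. gingivalis 1. Foxo4 was at 0.23, or 0.13 without saline 4, and Rps6kb2, a ribosomal S6 kinase, at 0.23, also with groups that did not overlap.

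**Figure D4:**
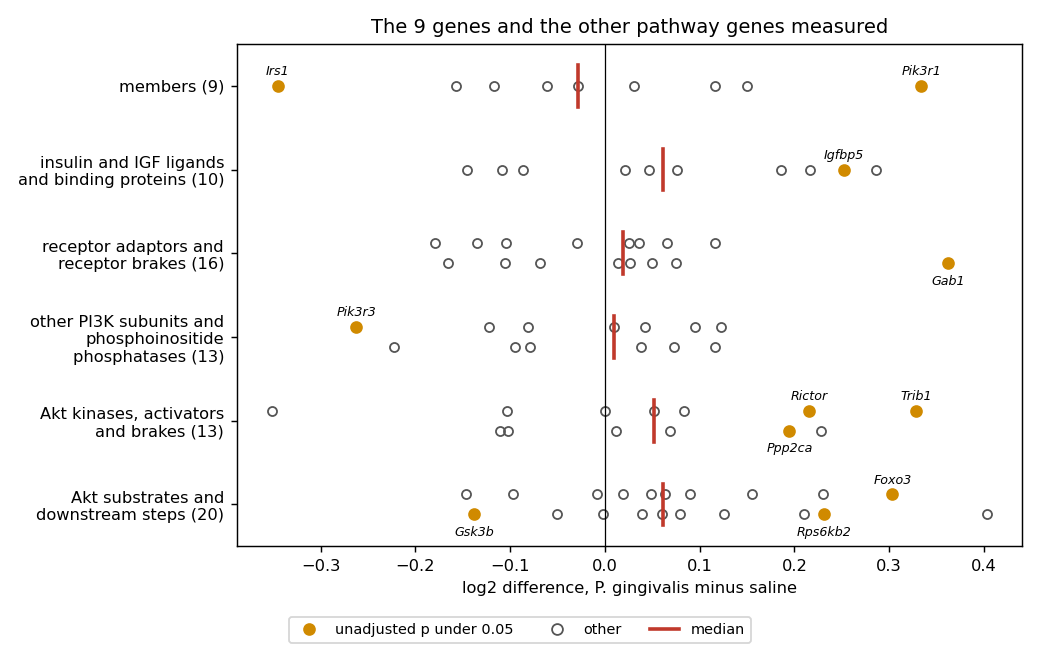
Log2 difference, P. gingivalis minus saline, of the 9 genes and of the 72 other pathway genes by list, with the number measured in brackets; filled points have an unadjusted p under 0.05 and red bars are medians. No gene passed an adjusted p of 0.05, and the medians lie between -0.03 and 0.06.

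Cell markers were set beside these values, since in bulk muscle fewer cells of a type and less RNA per cell cannot be told apart. For each list the signals were summed before log2 was taken, so the brightest markers weigh most. This level of 8 slow fibre markers was 11.68 to 11.80 in P. gingivalis and 11.54 to 11.63 in saline, without overlap. All 8 were higher on average in P. gingivalis. For 8 fast fibre markers, all 8 higher, it was 11.47 to 11.81 in P. gingivalis and 11.34 to 11.51 in saline. Endothelial markers summed to 5.36 to 5.57 in P. gingivalis and 5.71 to 5.81 in saline, without overlap and with 2 of 7 higher. Adipocyte markers summed to 7.11 to 7.28 in P. gingivalis and 6.97 to 7.39 in saline, with 3 of 7 higher. Markers of fibroblasts (7.05 to 7.62 in P. gingivalis, 7.12 to 7.54 in saline), macrophages (2.44 to 3.03 in P. gingivalis, against 2.21 to 3.50 in saline) and Schwann cells (3.97 to 4.31 in P. gingivalis, against 4.17 to 4.31 in saline) overlapped between the groups. So did those of neutrophils (5.86 to 6.19 in P. gingivalis, 6.14 to 6.40 in saline) and red blood cells (9.31 to 9.96 in P. gingivalis, 8.23 to 9.84 in saline). Single genes ran one way in some of these lists, with 0 of 6 macrophage markers (median log2 difference -0.24), 0 of 4 neutrophil markers (-1.77) and 4 of 4 red blood cell markers (0.62) higher on average in P. gingivalis. Of the marker genes measured, 0 passed an adjusted p of 0.05 by limma. Their part in the values of Irs1, Pik3r1 and the other members was not tested.

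For each member, the gene with the most similar profile over the 8 arrays was sought among 19330 genes well above background on all of them, by the root-mean-square difference of the log2 values after each gene's mean was removed. Pik3r1 was nearest to Cnst, which encodes consortin, at 0.070, where the median gene differed by 0.27, and Cnst itself had a log2 difference of 0.37 (adjusted p = 0.119 by limma). Irs1 was nearest, at 0.067, to an intergenic noncoding RNA of chromosome 8 (mm9 from 19692532 to 19694101) whose log2 difference was -0.32. The other nearest genes with a symbol were Tcaim for Insr (0.034), Exoc3 for Igf1r (0.043), Sucla2 for Pik3ca (0.035), Ctbp1 for Akt2 (0.016) and Lrfn1 for Grb10 (0.078). Those of Irs2 and Akt1 had a transcript identifier only. The search used the same 8 values as the group differences, so a similar group difference follows from it. A flat profile is also easily matched, and that of Akt2 had a root-mean-square size of only 0.046. No test was made of these likenesses.

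The authors' deposited table holds 14 rows for probes of the members, 0 of them with an adjusted p under 0.05, against 1.53% of all its rows. Of these 14 rows of the authors' deposited table, 5 had an unadjusted p under 0.05, against 22.3% of all its rows. In the authors' deposited table the difference of columns named Pg minus columns named Co was 0.38 for Irs1 (adjusted p = 0.124) and -0.36 for Pik3r1 (adjusted p = 0.165). The others of those 5 rows were Insr A_52_P6490 (-0.18), Akt2 A_55_P2066518 (-0.14) and Grb10 A_55_P2717329 (-0.29). That Akt2 probe is the brightest of its gene, whose log2 difference here was 0.03. In the authors' deposited table, the sign of 13 of the 14 rows was opposite to that found here. The exception was Grb10 A_55_P1955457. Since each column there was most like an array of the other group, an opposite sign is the same direction when arrays are matched by their values. Matched so, the Grb10 row is the 1 that differs in direction.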

How the data were processed

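RNA of each sample (200 ng, labelled with Cy3) was put on its own Agilent array, per the labels' protocols. The deposited spot intensity values came from Agilent Feature Extraction 11.0.1.1, per the file headers, and version 11.1 is named in the submitters' processing notes. The deposited table gives log2 values, p-values and a moderated statistic and log odds (a score each, not used), whose processing is not given in the sources used here.

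From the processed signal, already background-subtracted, log2 was taken and the array's 75th percentile over noncontrol spots was subtracted. Spots with outlier flags were left out, and probes flagged on any array (239) were dropped. Of 56605 probes, 33636 well above background on at least 4 arrays were kept. Names came from RefSeq accession (32994 probes), symbol (10224), older symbol (520) or the files (12867), through a table of GRCm38.p6 used for names alone. Probe sequences and mm9 positions are those of the files.

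Differences were tested by lmFit and eBayes of limma 3.58.1 (R 4.3.3, two-sided), over 22221 genes, each by its kept probe of highest mean, and over all kept probes. The fit was checked on simulated data. No spot was saturated (0 on each array), and the number of arrays limits the precision. Before scaling, that percentile was 648 to 738 in P. gingivalis and 696 to 764 in saline.

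The members, the 5 pathway lists and the marker lists were chosen with earlier results of these data known. The genes named are all members, the 4 of each list with the largest difference, and the nearest profile of each member. Ins1, Ins2, Igfbp1, Ppp2ca and Eif4ebp1 are outside that rule and were named after their values were seen. A further gene of the lists is not reported here. Alternatives covered background correction, scaling, the filter, the probe of a gene, the replicate number as a block, the variance model, array weights and each array left out. Leaving out saline 1 and P. gingivalis 3 together was added after the data had been seen.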

Additional observations from a re-analysis of the deposited data

Results flagged for a closer look

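Among the 19 member probes and the 20 other pathway genes named, 78 groups of 4 arrays were searched for a single array far from the others by Dixon's criterion, and 3 were found, where chance gives about 1 in 20. None was a member probe. Sh2b3 stood at 0.78 on P. gingivalis 4, against 0.56 to 0.58 on the other P. gingivalis arrays. Phlpp1 stood at -1.02 on P. gingivalis 4, against -1.33 to -1.30 on the others. Sos1 stood at 0.99 on saline 3, against 0.83 to 0.85 on the other saline arrays.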

How the results depend on the processing

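Under the 9 alternatives with all arrays, 0 of 9 members passed an adjusted p of 0.05 (smallest 0.0593, Akt1, median centring). The same held with any 1 array left out (0.0990) and without saline 1 and P. gingivalis 3 (0.254). The Akt2 probe A_55_P2066523 passed with median centring (0.0435). Members with an unadjusted p under 0.05 numbered 4 with median centring (31.6% of all genes), 3 with normexp (21.6%), 1 with the replicate block (19.9%), 1 without saline 1 and P. gingivalis 3 (13.8%), 2 in the other alternatives, and 0 to 2 with 1 array left out (15.9% to 20.8%), with 0 without P. gingivalis 1 or without saline 2. Irs1 stayed below 0 and Pik3r1 above 0 in all of these fits, at -0.48 and 0.33 without saline 1 and P. gingivalis 3. Median centring moved the median of all genes to 0.14, and there Igf1r (0.12), Pik3ca (0.087), Grb10 (0.032), the Igf1r probe A_51_P318365 (0.11), Sos1 (0.013) and Inpp5d (0.026) took the other sign, while each was below that median. Irs1 was at -0.20 and Pik3r1 at 0.48 there. With the mean of all kept probes the sign turned for Akt1 (-0.0032), Grb10 (0.11) and Ptpn11 (0.035), with normexp for the Igf1r probe A_52_P668647 (-0.061), and without saline 1 and P. gingivalis 3 for Pik3ca (0.022). With 1 array left out the ranges that crossed 0 were -0.077 to 0.054 for Igf1r (above 0 without P. gingivalis 1), -0.00033 to 0.045 for Akt2 (without saline 2), -0.12 to 0.022 for Igf1r A_51_P318365 (above 0 without saline 4, and 0.0072 without P. gingivalis 4), -0.044 to 0.084 for Igf1r A_52_P668647 (below 0 without saline 2, and -0.020 and -0.028 without P. gingivalis 2 or 3) and -0.0013 to 0.069 for Akt1 A_66_P107415 (without saline 4). Genes of the whole array past the threshold numbered 26 (8 higher, 18 lower in P. gingivalis), 452 with normexp (271 and 181), 216 with quantile normalization (152 and 64), 1924 with median centring (1838 and 86), 261 under the filter on all 8 arrays (145 and 116), 5154 with no filter (512 and 4642), 9 with the mean of all kept probes (2 and 7), 567 with trended and robust variance (347 and 220), 199 with array weights (109 and 90), 0 by limma without saline 1 and P. gingivalis 3 (3072 at an unadjusted p under 0.05), and 2 to 6 with 1 array left out. The other pathway genes past it numbered 7 with median centring (Gab1, Inpp5k, Rictor, Ppp2ca, Foxo3, Rps6kb2 and Eif4ebp1), 1 (Foxo3) each with normexp, under the filter on all 8 arrays, with no filter and with trended and robust variance, and 0 in the other fits. The cause was not tested.

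A replicate block gave 0 genes past the adjusted threshold by limma and 4432 at an unadjusted p under 0.05. Deviations of same-numbered arrays correlated at 0.06, -0.06, -0.04 and 0.23 for numbers 1 to 4, P. gingivalis 1 and 4 correlated best with saline 1 and 4, and P. gingivalis 2 and 3 with saline 3 and 2, so the numbers were not taken to pair the samples. Dim probes and 4 arrays per group limit what small differences can be seen.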
